A study of Homo sapiens with 11 samples.

Results

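Mucins of the epithelial surface were described on expression arrays of A549 and HCC827, established cell lines of human lung adenocarcinoma, stably transfected by retrovirus. The vector, pMXs-Neo, was empty in mock cells and encoded FLAG-tagged TRIM58 of the wild-type form, a RING-finger ubiquitin ligase, in TRIM58-WT cells. The mucins considered were MUC1, MUC4, MUC5AC, MUC5B, MUC13, MUC15, MUC16 and MUC20, 8 of the 20249 genes named on the array. They were selected by name with their measured levels in the 4 groups and their differences between TRIM58-WT and mock already known, so their values are given as a description and carry no test. Of the 8 genes, 6 had probes named through a RefSeq accession, 11 probes in all, and MUC5AC and MUC20 had none and have no value here. For A549 there were 3 replicates of mock, on 4 arrays, and 3 of TRIM58-WT, and for HCC827 there were 2 of each kind. The A549 mock arrays 1-1 and 1-2 are labelled as the same control cell and were averaged as replicate 1. All cells had been infected with retrovirus and selected with G418, and the study's methods say that clones were then isolated, while elsewhere HCC827 mock transfectants are called crude. For cells that are clones, clone and transgene cannot be told apart. The labels number the cells without saying whether they were separate infections, so SDs and p-values measure the spread between these cells, which may be clonal or technical.

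Mucins are very large glycoproteins whose serine- and threonine-rich domains are covered with O-linked sugars. The gel-forming mucins, led in the airway by MUC5B and MUC5AC, are packed into granules of goblet and gland cells, secreted and hydrated to form mucus. The transmembrane mucins MUC1, MUC4, MUC13, MUC15, MUC16 and MUC20 stay on the apical membrane, where they form part of the glycocalyx and, through their cytoplasmic tails, contact receptor kinases and the cytoskeleton. MUC1 and MUC16, the latter the carrier of the CA125 antigen, are both measured as serum markers of carcinoma. MUC2, MUC5AC and MUC5B lie side by side on chromosome 11, and MUC20 and MUC4 are neighbours on chromosome 3, which also carries MUC13.

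Each level below is the log2 signal of a probe minus the 75th percentile of its array, so 0 is the signal at that percentile. A probe is called well above background on an array where the scanner software marked most of its spots so, and levels of different probes are not compared. The number of arrays limits the precision. Between 40.1% and 50% of all probes were well above background per array. A549 mock replicate 3 and A549 TRIM58-WT replicates 2 and 3 had the lowest 75th percentile signals, 60.3, 62.5 and 56.6, against 90.5 to 125 elsewhere. Their lowest levels well above background, -2.46, -2.50 and -2.54, were the highest of all arrays, so dim probes were harder to detect there. What part this has in the A549 differences was not tested. A549 mock replicate 3 stood apart from the other mocks, with 12% and 15% of tested probes at least 2-fold away from replicates 1 and 2, against 3.15% between those, and A549 TRIM58-WT replicate 1 stood apart from replicates 2 and 3 with 17.2% and 16%. Replicates 2 and 3 of A549 TRIM58-WT differed with an SD of 0.21 (log2), less than the 0.26 between the arrays 1-1 and 1-2 of 1 control cell, which were hybridised on different slides. They were kept as separate replicates as labelled, and counts with their mean as 1 replicate are given beside the gene lists. The only TRIM58 probe stood clearly over background in A549 mock replicate 3 alone, at -0.71, and on none of the TRIM58-WT arrays. Whether this probe lies in the coding sequence that the vector carries was not determined, so it does not check the TRIM58-WT labels. It sets mock replicate 3 apart from the other A549 mock arrays, which read -5.33 to -5.18, and the reason was not tested. The groups are named as labelled.

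In A549 mock cells MUC13, MUC5B and MUC1 were well above background on every array and MUC16 on 3 of 4, and all of them were lower in the TRIM58-WT cells. MUC13 was at background in every A549 TRIM58-WT replicate and MUC5B in 2 of 3. MUC4 differed little in A549 and MUC15 was at background in nearly every cell. HCC827 showed another set, with MUC1, MUC4 and MUC16 well above background in all 4 replicates, MUC5B dim, and MUC13 and MUC15 at background throughout.

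**Figure D1:**
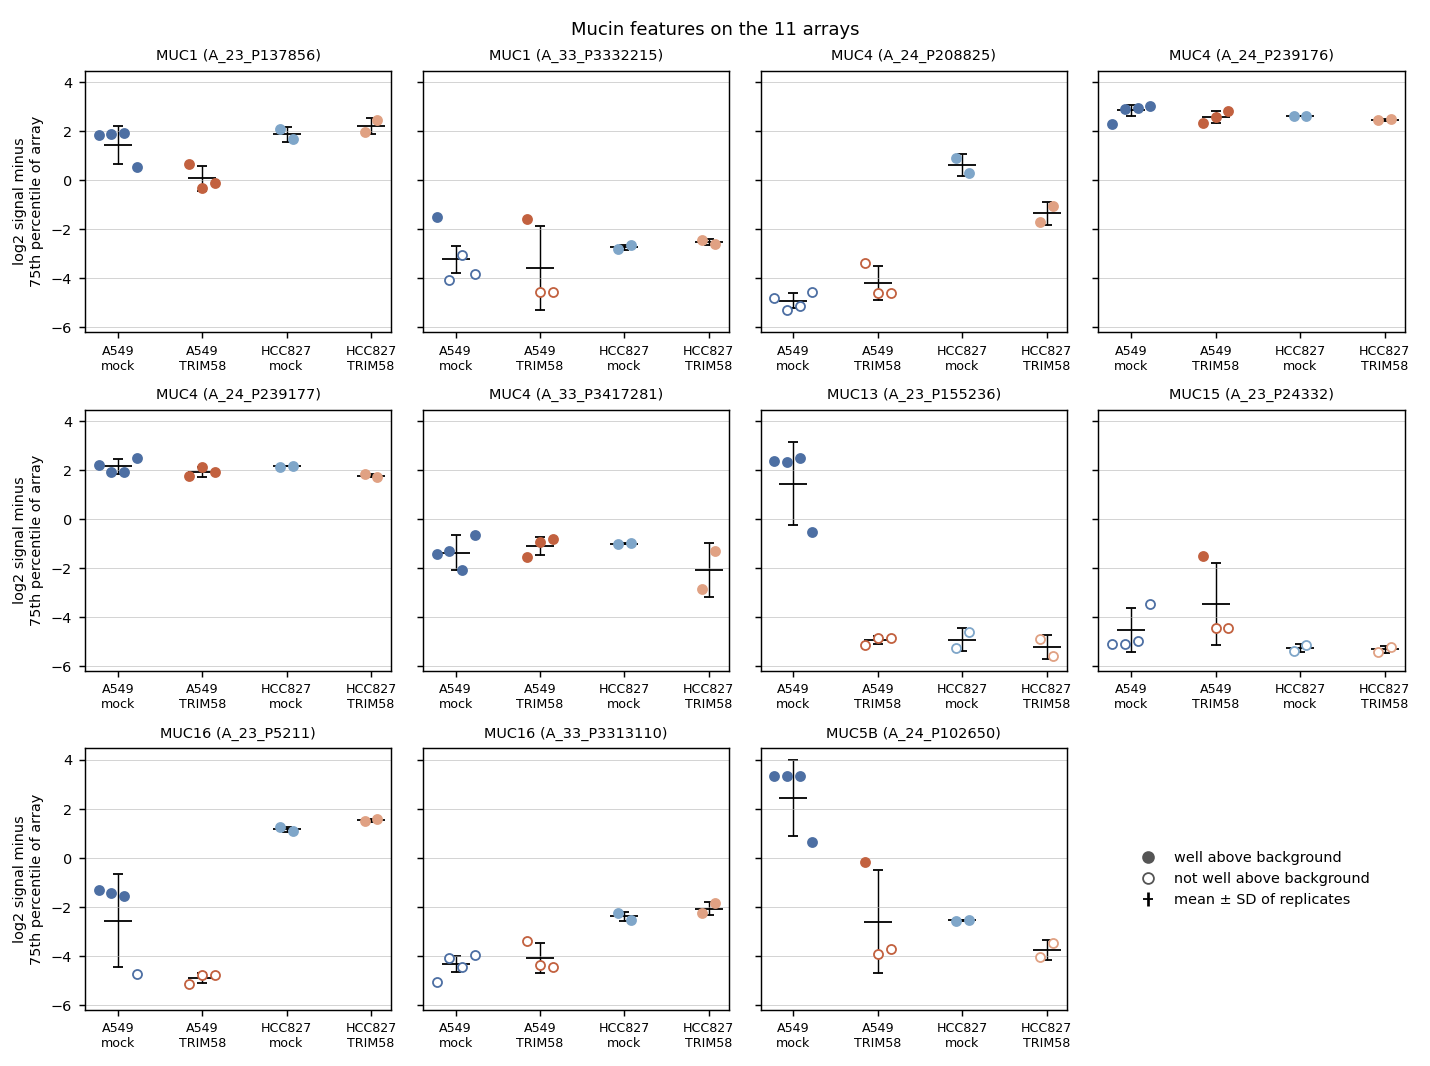
Log2 signal minus the 75th percentile of the array (vertical axis) for the 11 mucin probes on each of the 11 arrays, by group; filled points were well above background, open points were not, and the bars give the mean ± SD of the replicates with A549 mock arrays 1-1 and 1-2 averaged. MUC13 lies between -0.51 and 2.48 in A549 mock and at background in all other groups, and MUC16 (A_23_P5211) lies above 1 in every HCC827 array.

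MUC13, a transmembrane mucin of the gut and airway epithelium with EGF-like domains, showed the widest separation of groups in A549. Its levels on mock arrays 1-1, 1-2, 2 and 3 were 2.39, 2.35, 2.48 and -0.51. The TRIM58-WT replicates read -5.13, -4.84 and -4.85, none of them well above background. The mean over the mock replicates was 1.45 ± 1.70 (SD, n = 3), and the groups did not overlap. Since the TRIM58-WT side is only a bound, set at the lowest signal of each array that was well above background, MUC13 was at least 16.9-fold lower in TRIM58-WT, and at least 33.2-fold lower when mock replicate 3 was left out. In A549, 6 of the 11 mucin probes passed the filter and 1, that of MUC13, passed the test as lower, beside 3.43% of all probes tested, and nothing is read from that count because the probes were chosen on this contrast. All 4 HCC827 arrays were at background, between -5.56 and -4.59. Within the slide that held mock arrays 1-1 and 2 and TRIM58-WT replicate 1 the difference was -7.57 (log2), and within the other slide it was -5.76.

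The promoter of MUC13 is shown because the gene went from a bright signal to background, with the letters TGANTCA (the AP-1 site) and TGACGTCA (the cAMP response element, CRE) in capitals where they occurred. The RefSeq promoter, build GRCh38.p14, minus strand, chr3:124934702-124935001, runs 5′ to 3′ from 250 bases before the start to 50 bases after it.
MUC13: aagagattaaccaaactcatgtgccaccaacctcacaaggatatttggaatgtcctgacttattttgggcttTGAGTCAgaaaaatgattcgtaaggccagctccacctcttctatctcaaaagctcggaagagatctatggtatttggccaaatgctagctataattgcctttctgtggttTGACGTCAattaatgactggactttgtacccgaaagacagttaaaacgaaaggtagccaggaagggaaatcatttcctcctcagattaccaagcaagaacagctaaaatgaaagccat
Read on both strands, it holds 1 AP-1 match at offset -178 and 1 CRE match at offset -68 from the start. Of 35116 RefSeq promoters of this length, 7.71% hold TGANTCA and 1.85% hold TGACGTCA. Its GC content was 41%, below the lower quartile of 47% over all promoters. A match is a run of letters and not a measured binding site.

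MUC5B, the main gel-forming mucin of the distal airway, was the only secreted mucin among the 6 with probes. In A549 mock it read 3.35 and 3.33 on arrays 1-1 and 1-2, 3.33 in replicate 2 and 0.65 in replicate 3. In A549 TRIM58-WT, replicate 1 read -0.16 and was well above background, while replicates 2 and 3 read -3.92 and -3.69 and were not. The means were 2.44 ± 1.55 (SD, n = 3) and -2.59 ± 2.11 (SD, n = 3), a difference of -5.03 (SE 1.20) or 32.7-fold, without overlap of the groups. As 2 of the 3 TRIM58-WT values were at background, the size is uncertain, and it was 20.6-fold without TRIM58-WT replicate 2 and 75.8-fold without TRIM58-WT replicate 1. Within the slides the difference was -3.50 and -5.79. The nearest replicates, mock 3 and TRIM58-WT 1, are the same replicates that stood apart over all probes. Both HCC827 mock replicates were dim but well above background, at -2.57 and -2.52, and both TRIM58-WT replicates, at -4.04 and -3.47, were not, which puts MUC5B at least 1.77-fold lower there. MUC5B was thus lower in TRIM58-WT in both lines, with values at background in each difference. How many of all probes were lower without overlap in both lines was not counted.

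MUC16, a transmembrane mucin with the largest protein core of the family, was read mainly on its brighter probe (A_23_P5211). Its mean there was lower in A549 TRIM58-WT, near background, and slightly higher in HCC827 TRIM58-WT. In A549 mock it read -1.32 and -1.43 on arrays 1-1 and 1-2 and -1.56 in replicate 2, but -4.72, at background, in replicate 3. All A549 TRIM58-WT replicates were at background, at -5.14, -4.77 and -4.78. Over all mock replicates MUC16 was at least 1.05-fold higher than in TRIM58-WT, and at least 2.24-fold without mock replicate 3, so the size of the A549 difference rests on whether that replicate is counted. In HCC827 the mock replicates read 1.25 and 1.10 and the TRIM58-WT replicates 1.51 and 1.59, a difference of 0.38 (SE 0.14) or 1.3-fold, higher in TRIM58-WT without overlap. The second probe (A_33_P3313110) was at background on all A549 arrays and had overlapping groups in HCC827, where mock replicates read -2.25 and -2.52 against -2.26 and -1.85.

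MUC1, the transmembrane mucin of glandular epithelia, was well above background on all 11 arrays on its brighter probe (A_23_P137856). In A549 mock it read 1.86 and 1.88 on arrays 1-1 and 1-2, 1.92 in replicate 2 and 0.53 in replicate 3. The TRIM58-WT replicates read 0.66, -0.33 and -0.10, so TRIM58-WT replicate 1 lay above mock replicate 3 and the groups overlapped. The difference was -1.36 (SE 0.45), or 2.57-fold lower in TRIM58-WT, and -1.82 without mock replicate 3, where the groups no longer overlapped. In HCC827 the mock replicates read 2.08 and 1.67 and the TRIM58-WT replicates 1.97 and 2.45, which overlap. The second MUC1 probe (A_33_P3332215) read -1.49 on mock array 1-1 and -4.07 on array 1-2 of the same cell, a difference of -2.58 between slides, which is larger than its difference between the A549 groups (-0.35).

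MUC4, a transmembrane partner of ERBB2 with EGF-like domains, gave different pictures on its 4 probes. On A_24_P239176 and A_24_P239177 the group means lay between 2.48 and 2.85 and between 1.78 and 2.16, nearly level over all groups, with differences of -0.28 (SE 0.21) and -0.23 (SE 0.22) in A549. On A_24_P208825, by contrast, all 7 A549 arrays were at background, while the HCC827 mock replicates read 0.93 and 0.29 and the HCC827 TRIM58-WT replicates -1.68 and -1.03. That probe was 3.9-fold lower in HCC827 TRIM58-WT, a difference of -1.96 (SE 0.33) without overlap. The fourth, A_33_P3417281, was also lower in both HCC827 TRIM58-WT replicates, at -2.86 and -1.31 against -1.01 and -0.99, with a difference of -1.08 (SE 0.53). The HCC827 TRIM58-WT means were lower by 1.11-fold to 3.9-fold, so the probes do not give 1 size of difference for the gene. How many of all probes separate the groups at 2 replicates a side was not counted, so nothing is read from the separation on these probes.

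MUC15, a small transmembrane mucin, was at background on 10 of 11 arrays. The exception was A549 TRIM58-WT replicate 1, at -1.51, against -4.43 and -4.45 in replicates 2 and 3. The mock array with the highest reading was replicate 3, at -3.47. No fold is given, because the mean of that group did not exceed the bound for the mock arrays.

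**Figure D2:**
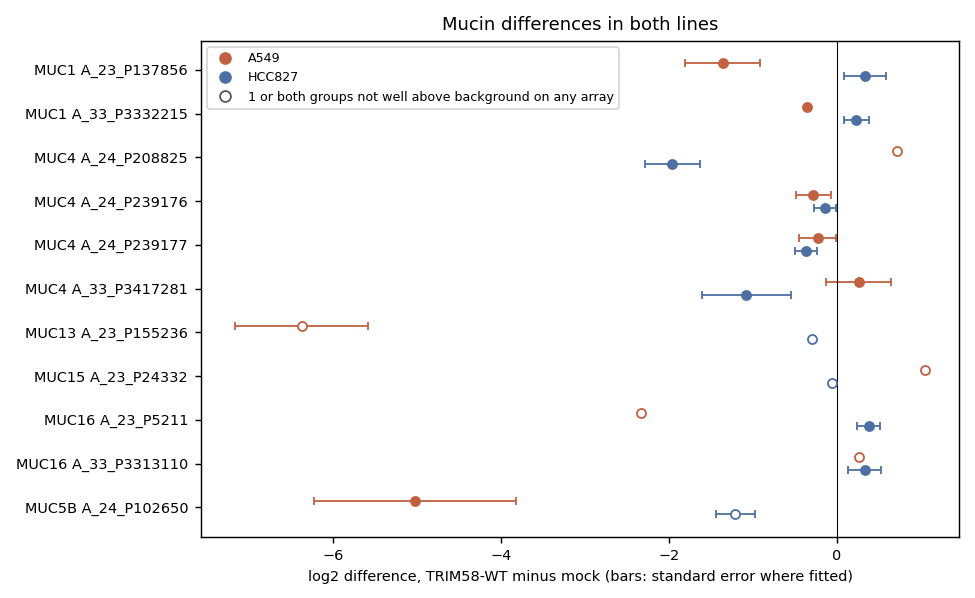
Log2 difference between TRIM58-WT and mock (horizontal axis) for each mucin probe in A549 and HCC827, with the standard error of the fit where the probe was fitted; open points mark comparisons in which 1 or both groups were not well above background on any array, where the value shown is not a measured fold. MUC13 (-6.38) and MUC5B (-5.03) in A549 lie farthest from 0, and the HCC827 differences lie between -1.96 and 0.38.

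The mock cells of the lines differed in their mucins before any difference with TRIM58-WT. MUC5B was 31.7-fold higher in A549 mock than in HCC827 mock, and MUC13 was at least 25.6-fold higher. MUC16 ran the other way, 13.2-fold higher in HCC827 mock on the brighter probe, as did MUC4 on A_24_P208825, at least 11.3-fold. MUC1 differed by 1.35-fold, with overlapping replicates. These differences compare 3 with 2 replicates and were not tested. All HCC827 arrays shared a slide with A549 mock arrays 1-1 and 2. The control cell hybridised on both slides differed between them by -0.04 for MUC13, -0.01 for MUC5B, -0.11 for MUC16 (A_23_P5211) and 0.01 for MUC1 (A_23_P137856). It differed by -0.50 for MUC4 on A_24_P208825, at background in A549. The other mucin probes ranged from -2.58 for MUC1 (A_33_P3332215) to 0.99 for MUC16 (A_33_P3313110).

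Over the 4 groups, the order of levels was thus A549 mock above all others for MUC13 and MUC5B, and HCC827 TRIM58-WT and HCC827 mock above A549 mock above A549 TRIM58-WT for MUC16 and MUC1. For MUC13 the 3 lower groups were all at background and have no order. For MUC5B, A549 TRIM58-WT lay among the HCC827 groups, with replicates from -3.92 to -0.16. For MUC1, the order is that of the means, since the A549 groups, the HCC827 groups and the mock groups of the lines each overlapped. For MUC16, A549 mock replicate 3 and all A549 TRIM58-WT replicates were at background.

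Promoters of MUC1, MUC16 and MUC4 are given beside that of MUC13, because 2 of these genes were lower in A549 TRIM58-WT and MUC4 was nearly level there on its brighter probes. They are RefSeq promoters of build GRCh38.p14 on the minus strand, 250 bases before to 50 bases after the start, at chr1:155192866-155193165 for MUC1, chr19:9065702-9066001 for MUC16 and chr3:195811880-195812179 for MUC4. Capitals mark TATAAA (the TATA box) and GGGCGG (the SP1 site) on either strand.
MUC1: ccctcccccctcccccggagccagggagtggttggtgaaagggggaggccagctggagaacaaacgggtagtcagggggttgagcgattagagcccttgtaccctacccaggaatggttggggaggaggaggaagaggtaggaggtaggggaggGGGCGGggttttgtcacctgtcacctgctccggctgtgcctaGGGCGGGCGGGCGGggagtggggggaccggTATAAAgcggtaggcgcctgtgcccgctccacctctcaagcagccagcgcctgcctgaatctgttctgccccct
MUC16: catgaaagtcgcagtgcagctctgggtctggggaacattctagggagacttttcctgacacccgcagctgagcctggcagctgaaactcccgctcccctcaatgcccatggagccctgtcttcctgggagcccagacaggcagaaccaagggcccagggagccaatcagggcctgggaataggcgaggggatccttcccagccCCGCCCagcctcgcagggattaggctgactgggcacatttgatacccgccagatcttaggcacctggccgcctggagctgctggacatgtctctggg
MUC4: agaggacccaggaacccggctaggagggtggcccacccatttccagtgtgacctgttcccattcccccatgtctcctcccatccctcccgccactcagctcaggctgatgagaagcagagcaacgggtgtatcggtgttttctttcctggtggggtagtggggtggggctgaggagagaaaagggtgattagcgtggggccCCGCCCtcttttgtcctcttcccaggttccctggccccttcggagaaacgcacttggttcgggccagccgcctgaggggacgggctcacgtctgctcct
The MUC1 promoter holds 4 SP1 matches, 3 of them overlapping, and 1 TATA box, the MUC16 and MUC4 promoters 1 SP1 match each, and MUC13 none of either. A second RefSeq start of MUC16, at chr19:9010360-9010659 on the minus strand and not printed, has no SP1 match and 1 AP-1 match, TGAATCA, at offset -136. Among all promoters, 45% hold GGGCGG and 11.5% hold TATAAA. GC content was 65.7% in MUC1 and 62% in both MUC16 and MUC4, against a median of 58.7% over all promoters. Neither TGTTTAC (FOXA) nor CACGTG (the E-box) occurred in the 4 printed windows, and 3.42% and 7.26% of all promoters hold them.

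Among the 12840 genes compared, the profiles closest to each mucin over the 10 replicates, each centred on its own mean, were found by the root mean square difference. For MUC13 they were GDA (0.33), MAPK4 (0.47) and MYO1A (0.53), the last a brush border myosin. For MUC5B they were PI3 (0.46), the elastase inhibitor elafin, MMP7 (0.48) and USH1C (0.62). For MUC16 they were ARL14 (0.39), LAMP3 (0.43) and SYK (0.43), and for MUC1 UBE2L6 (0.21), KLHL2 (0.23) and PARP12 (0.24). The nearly level MUC4 probe A_24_P239176 had UBE2D2, CHMP4A and MTX1 at 0.10 to 0.11. These are likenesses of profile over the replicates of 4 groups and share the arrays that made them.

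Other genes of the mucus pathway were read from 5 lists, with limma and Benjamini-Hochberg adjustment over all probes tested. In A549, 7 of 15 tested genes of the list of mucous cell regulators and secreted partners passed the test, 6 lower and 1 higher in TRIM58-WT. Over all 11201 genes tested, 4.07% passed as lower and 3.91% as higher. The median change of the list was -1.56 (log2), against 0.03 over all genes tested. The lists were chosen with earlier results of these data known, so their counts and medians are descriptions. Genes also entered the tests if well above background on all arrays of only 1 group, as SPDEF was in A549 mock. Of the remaining lists, 4 of 17 genes of granule exocytosis and mucus hydration fell, 3 of 19 membrane mucin partners and sheddases fell, and of 23 O-glycan enzymes 4 fell and 1 rose. Their medians, between -0.07 and -0.00, lay near that of all genes, so in these lists single genes changed and most did not pass the test. These counts depend on single replicates: without mock replicate 3 they were 11, 6, 5 and 10 in the order of the lists, and without mock replicate 1 they were 2, 2, 0 and 1. Without mock replicate 2, TRIM58-WT replicate 2 or TRIM58-WT replicate 3, the list of regulators and secreted partners had 2, the exocytosis list 2, the partner list 0 to 1 and the O-glycan list 2.

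The epithelial genes KRT19 and EPCAM also fell in A549. KRT19, a keratin of simple epithelium, lay between 6.11 and 7.52 in A549 mock and at background in TRIM58-WT, a fall of at least 723-fold (limma adjusted p = 0.000151). EPCAM fell 29.4-fold (limma adjusted p = 0.0117), with TRIM58-WT replicates 2 and 3 at background. The EPCAM fall was 22.6-fold without mock replicate 2 and 48.5-fold without mock replicate 3, and the call was lost in 4 of 6 omissions of a replicate. Of 8 epithelial markers, 7 exceeded background clearly on all A549 mock arrays and 4 on all A549 TRIM58-WT arrays, with KRT19, CLDN4 and CLDN7 on none, and all 8 were so in both HCC827 groups. Their summed level was 10.56 to 11.17 in A549 mock and 10.10 to 10.75 in A549 TRIM58-WT, and 10.66 to 10.73 and 10.89 to 11.04 in HCC827 mock and TRIM58-WT. Of 9 alveolar type 2 markers, SFTPA2 and ABCA3 were detected on every array of every group and SFTPA1 on none. NKX2-1 was detected on no A549 array and on all HCC827 arrays. Of the markers of other cell types, all 4 endothelial markers were at background throughout, 0 of 4 basal and 0 of 3 ciliated markers were detected on every array of any group, and of 6 fibroblast markers COL1A1 was detected on every A549 TRIM58-WT array and 5 on none. Of 5 leukocyte markers CD68 was detected on every array of every group, CD14 on every array of all groups but A549 TRIM58-WT, PTPRC on every HCC827 mock array, and CD3E and ITGAM on none. The summed level of that list was 1.93 to 2.31 in A549 mock and 0.73 to 1.06 in A549 TRIM58-WT, and 2.17 to 2.19 and 2.66 to 2.86 in HCC827 mock and TRIM58-WT. What part the genes of these marker lists have in the values of the mucins and of the lists was not tested.

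Among the regulators, SPDEF, the ETS factor that drives goblet cell differentiation, read 0.61, 0.79, 0.70 and 0.16 on the A549 mock arrays and -2.35, -2.96 and -3.06 in TRIM58-WT. It fell by 3.31 (SE 0.27, limma adjusted p = 0.00201), with TRIM58-WT replicates 2 and 3 at background. KLF4, a zinc finger factor of epithelial differentiation, read 1.26, 1.00, 1.15 and -0.51 on the A549 mock arrays and -1.23, -2.17 and -2.21 in TRIM58-WT. The latter pair were at background, and KLF4 fell 5.49-fold without overlap (change -2.46, SE 0.52, limma adjusted p = 0.0382). FOXA1 and FOXA2, which act upstream of mucous differentiation in the airway, had changes of -0.33 and -0.16 and did not pass the test. ELF3, an epithelial factor of the ETS family, fell as well, with a change of -1.56 (SE 0.24, limma adjusted p = 0.0143). The gene that rose, NOTCH2, a receptor of the pathway that favours secretory cells, changed by 1.17 (SE 0.21, limma adjusted p = 0.0233). ELF3, FOXA1, FOXA2 and NOTCH2 lie outside the rule for named genes and were picked after their values were seen.

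Of the secreted partners, AGR2, TFF1 and SLPI passed the test as lower. AGR2, the disulfide isomerase of the endoplasmic reticulum that mucin folding needs, read 6.57, 6.39, 6.04 and 4.06 on the A549 mock arrays and 1.27, -1.41 and -1.29 in TRIM58-WT, a 64.2-fold fall (change -6.00, SE 0.92, limma adjusted p = 0.0148). The AGR2 fall was 46.2-fold without mock replicate 1 and 118-fold without TRIM58-WT replicate 1, and the call was lost in 4 of 6 omissions of a replicate. TFF1, a trefoil peptide released with mucus, fell 59.3-fold (change -5.89, SE 0.52, limma adjusted p = 0.0027), 47.4-fold without mock replicate 2 and 90.2-fold without mock replicate 3. SLPI, the secretory leukocyte protease inhibitor, fell 15.1-fold (limma adjusted p = 0.0252). The SLPI fall was 11.8-fold without TRIM58-WT replicate 2 and 24.9-fold without TRIM58-WT replicate 1, and the call was lost in 4 of 6 omissions. TFF3, the trefoil peptide of goblet cells, was at background on every array.

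Of the genes that release granules, VAMP8, the vesicle SNARE of mucin exocytosis, lay between 5.13 and 6.34 in A549 mock and between -1.62 and -0.24 in TRIM58-WT, a change of -6.95 (SE 0.47, limma adjusted p = 0.00117). UNC13D, the priming factor Munc13-4, fell from a level of 0.76 to 0.83 on the mock arrays to background, by at least 10.7-fold (limma adjusted p = 0.000778). RAB27B, a GTPase of secretory vesicles, and SLC12A2, the sodium-potassium-chloride cotransporter that supplies chloride for fluid secretion, fell by 1.61 and 2.09 (limma adjusted p = 0.0153 and 0.0182). CFTR, the chloride channel of the airway surface, was at background on every array.

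Among partners of the membrane mucins, ERBB3, a receptor that forms pairs with ERBB2, fell at least 8.01-fold in A549 (limma adjusted p = 0.0106), or at least 14-fold without mock replicate 3. MMP7, a metalloprotease that sheds surface proteins, fell 38.9-fold (limma adjusted p = 0.0231). The MMP7 fall was 26.6-fold without TRIM58-WT replicate 3 and 79.1-fold without TRIM58-WT replicate 1, and the call was lost in 4 of 6 omissions of a replicate. LGALS3, the galectin that binds the glycans of MUC1 and MUC16, fell 2.62-fold (limma adjusted p = 0.0127). EGFR changed by -0.09 (SE 0.26) and did not pass. MSLN, the ligand of MUC16, was above background on the same A549 arrays as MUC16 (A_23_P5211) but at background in HCC827, with 0.05, 0.12 and -0.04 on mock arrays 1-1, 1-2 and 2 of A549 and background in mock replicate 3 and all A549 TRIM58-WT replicates, and it was not tested in A549 because of that replicate.

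Of the enzymes that build O-glycans, B3GNT3, which extends core 1 chains, fell 47.8-fold with no overlap (change -5.58, SE 0.24, limma adjusted p = 0.000177). ST6GALNAC1, the sialyl-Tn synthase, fell at least 11.1-fold (limma adjusted p = 0.0334), or at least 20.7-fold without mock replicate 3, and lost its call in 5 of 6 omissions of a replicate. ST3GAL1, which caps core 1 with sialic acid, fell 3.15-fold (limma adjusted p = 0.00802). GALNT7, which adds GalNAc to partly glycosylated peptides, fell 2.23-fold (limma adjusted p = 0.0381). GALNT16, of the family that starts O-glycans, was higher by 15.5-fold (limma adjusted p = 0.0314), a size that rests on background values, since 3 of the 4 mock arrays were not well above background, at -3.65, -4.47 and -5.39. It was 9.06-fold without mock replicate 2 and 28.8-fold without mock replicate 3, and the call was lost in 5 of 6 omissions. GCNT3, the core 2 and core 4 enzyme of mucous tissue, changed by -0.52 (SE 0.45) without passing, and GALNT3 was at background in A549 and level in HCC827, with a difference of 0.17 (SE 0.15).

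**Figure D3:**
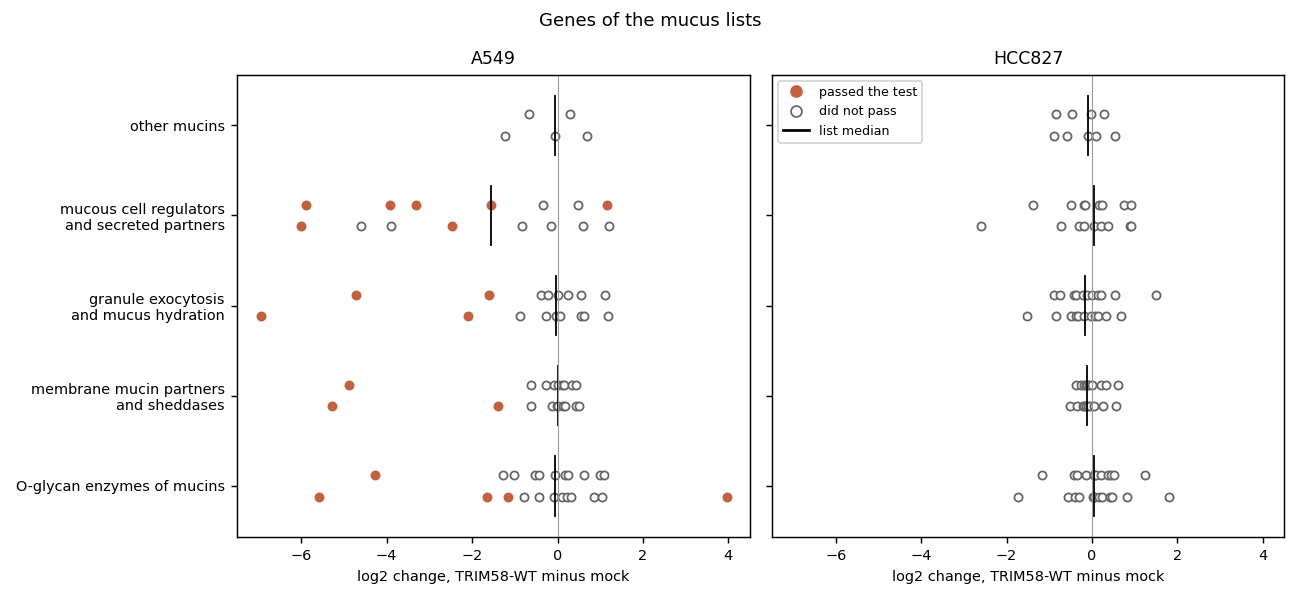
Log2 change between TRIM58-WT and mock (horizontal axis) for each tested gene of the 5 lists, A549 on the left and HCC827 on the right; filled points passed the test, open points did not, and a black line marks the median of the list. In A549 the regulators and secreted partners are centred on -1.56, while the medians of the other lists and of all HCC827 lists lie between -0.16 and 0.05.

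Many probes of other mucins and mucin-like proteins were dim or at background, but not all. PODXL had a mean of 3.64 in A549 mock and 2.17 in HCC827 mock, and CD164 (A_23_P254756) 1.45 and 1.96. Of 20 listed genes, 18 were named on the array with 33 probes, of which 15 were well above background on no array and 4 on every array, those of MUC3A, CD164, PODXL and PODXL2. In A549, 5 of these genes were tested and 0 passed with limma, with 2 at an unadjusted p under 0.05 and 0 by the test named in the study's methods. MUC6, the gel-forming mucin of gastric glands, changed by 0.69 (SE 0.42), and MUC2, that of the intestine, was well above background on some arrays of each group and was tested in HCC827 alone, where it differed by -0.03 (SE 0.17). No probe was named for MUC21.

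In HCC827, 0 genes of any of the 5 lists passed the test with limma, against 0.763% of all 12195 genes as lower and 0.336% as higher, and 0 by the test named in the study's methods. At an unadjusted p under 0.05 there were 3 of 9 other mucins, 6 of 17 regulators and secreted partners, 8 of 22 exocytosis and hydration genes, 3 of 20 membrane mucin partners and 10 of 25 O-glycan enzymes. With 2 replicates a side this does not show that the genes were level. AGR2 was the tested list gene with the largest difference, with mock replicates at 3.72 and 3.92 against TRIM58-WT replicates at 0.72 and 1.70, 6.1-fold lower without passing (difference -2.61, SE 0.36, limma adjusted p = 0.0687). VAMP8, UNC13D and B3GNT3, which fell in A549, differed by -0.21 (SE 0.14), 0.34 (SE 0.17) and 0.24 (SE 0.14).

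Whether the change differed between the lines was tested in a contrast over all 10 replicates. It passed for 4 of 19 tested regulators and secreted partners, all more negative in A549, for 2 of 22 exocytosis and hydration genes, 1 of 20 membrane mucin partners and 3 of 28 O-glycan enzymes, beside 4.62% of all genes. The contrast was -6.74 (SE 0.65) for VAMP8, -5.81 (SE 0.33) for B3GNT3 and -3.11 (SE 0.45) for SPDEF. For AGR2 it was -3.40 (SE 1.31, limma adjusted p = 0.212), so a difference between the lines was not shown there. VAMP8 and B3GNT3 were named because they were called in A549, and the A549 change is part of this contrast.

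**Figure D4:**
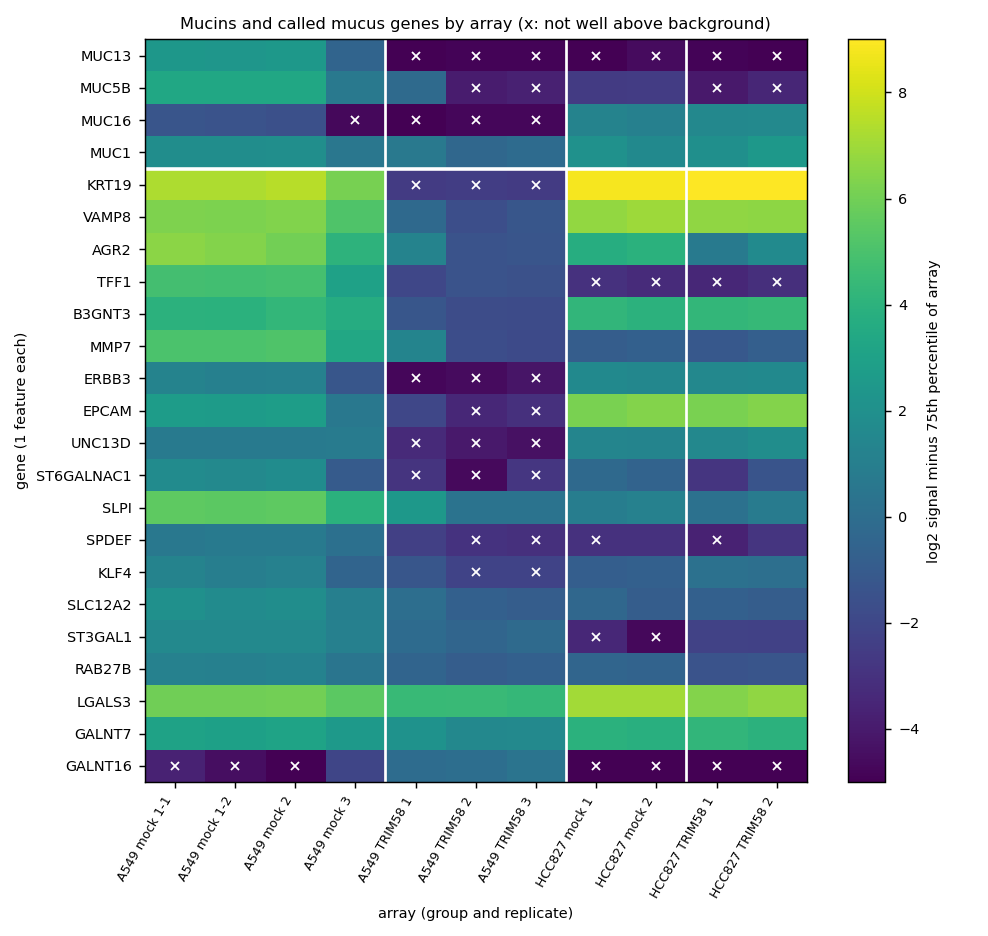
Log2 signal minus the 75th percentile of the array (colour) for 4 mucin probes (above the white line) and the 19 named genes called in A549 (below it) on each of the 11 arrays; a cross marks a value not well above background, and colours may be compared along a row only. In the A549 block most rows, MUC13, MUC5B, MUC16 and MUC1 among them, are lower in mock replicate 3 than in the other mocks, while UNC13D is not and GALNT16 is higher there.

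The 19 named genes called in A549 had passed on these same arrays, so directions and calls kept there are no separate support. All 19 kept their direction within both slides. With slide as a block, where arrays 1-1 and 1-2 of 1 control cell entered as separate samples, all 19 stayed called. Fewer did under other settings, 14 with normexp background correction, 10 with no filter on dim probes and 1, B3GNT3, by the test named in the study's methods. With 1 replicate left out, 13 lost their call in 1 or more omissions. The other 6 stayed called in each of the 6 omissions, namely B3GNT3, KRT19, SPDEF, TFF1, UNC13D and VAMP8. Without A549 mock replicate 1, only those 6 passed, and the highest adjusted p of these was 0.0204 over all omissions. With TRIM58-WT replicates 2 and 3 averaged to 1, 7 of the 19 stayed called, and 2 of 15 regulators and secreted partners passed in place of 7.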

How the data were processed

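RNA of A549 and HCC827 stable transfectants was hybridised to 11 Agilent arrays in 1 colour. The deposited spot intensity files were extracted by the authors with Agilent Feature Extraction (11.5.1.1 per the file headers, 10.7 per the labels), with local background subtraction and without scaling of arrays to each other. A deposited table of log2 values served as an alternative. Here, outlier spots were left out, replicate spots were averaged as intensities, and from the log2 of the mean the array's 75th percentile was subtracted. Probes were named through RefSeq accessions (assembly GRCh38.p14), which gave 27241 of 42405 probes a symbol. Probes that exceeded background clearly on all arrays of 1 or more of the compared groups were fitted with limma 3.58.1 (R 4.3.3), per line, with A549 mock arrays 1-1 and 1-2 averaged, and called at a Benjamini-Hochberg adjusted p under 0.05 and a 2-fold change. The contrast between lines was called on the adjusted p alone. The steps were tested on simulated data.

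The 8 mucins, the gene lists and the rule for named genes were chosen with earlier results of these data known. Named were all mucins, up to 5 called genes of largest change per list and line, 12 genes named for their role in mucus (SPDEF, AGR2, TFF3, CFTR, MSLN, LGALS3, EGFR, GALNT3, GCNT3, MUC2, MUC6 and MUC21), EPCAM, KRT19 and the 3 closest profiles of a mucin. Each gene of a list was read on its brightest probe, and 2 listed genes are not reported here. Alternatives were normexp background correction (offset 50), a median shift, quantile normalization, a joint fit of the lines, the filter applied to all arrays or dropped, replicate number or slide as a block, the methods' Welch test, retained outlier spots, other uses of mock arrays 1-1 and 1-2, each replicate left out and, chosen after seeing the data, TRIM58-WT replicates 2 and 3 of A549 averaged. The study's methods name Welch's test among those for comparing 2 groups, and name no test for the arrays. Deviations of same-numbered replicates correlated at 0.50, -0.42 and 0.50 in A549 and at 0.08 and 0.08 in HCC827, so the numbers were not taken to pair the samples. Across numbers, A549 mock replicate 3 correlated with TRIM58-WT replicates 2 and 3 at 0.57 and 0.50. Mock replicates 1 and 2 correlated with TRIM58-WT replicate 1 at 0.50 and 0.41. The remaining A549 pairs lay between -0.59 and -0.31. The A549 replicates thus also divide across mock and TRIM58-WT, and the reason was not tested.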

Additional observations from a re-analysis of the deposited data

Results flagged for a closer look

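For 10 named genes the TRIM58-WT change differed between A549 and HCC827 in limma's contrast, given here as the A549 change minus the HCC827 change on the log2 scale with its adjusted p. Values of genes at background in a group are not measured folds. Over all genes, 4.62% passed this contrast. No list gene was called in HCC827, so list genes named for the size of their change were picked on A549. Genes named for their role and the epithelial markers were chosen with earlier results known. The A549 change is part of the contrast, so passing it follows in part from that choice. Nothing is read from the count of genes or from its direction. Among regulators and secreted partners, TFF1 had -5.74 (0.00567), KLF4 -3.38 (0.0429) and SPDEF -3.11 (0.00956). Among genes of granule exocytosis, VAMP8 had -6.74 (0.0018) and UNC13D -5.05 (0.000801). ERBB3 had -4.90 (0.0256), B3GNT3 -5.81 (0.000113) and ST3GAL1 -3.46 (0.00829). The epithelial markers KRT19 and EPCAM had -9.79 (8.28e-05) and -4.89 (0.0291). For MUC16 on A_23_P5211 the mean was lower in A549 TRIM58-WT and higher in HCC827 TRIM58-WT, with a difference of -2.72, which was not tested. A549 mock replicate 3 and all A549 TRIM58-WT replicates were at background, so the size of that difference was not measured.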

How the results depend on the processing

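The A549 comparison called 1171 probes, and 512 with normexp background correction, 609 with no filter, 673 with the filter on every array, 1729 with mock arrays 1-1 and 1-2 separate, 1802 with them separate and slide as a block, 24 by the methods' Welch test, 333 with TRIM58-WT replicates 2 and 3 averaged and 297 to 2192 with 1 replicate left out, where only leaving out mock replicate 3 or TRIM58-WT replicate 1 raised it. HCC827 called 173, and 650 with a median shift, 93 with normexp, 367 with the filter on every array, 0 with no filter, 0 with the replicate block, 0 by Welch's test and 0 to 461 with 1 replicate left out. The contrast between lines called 794, and 526 with a median shift, 450 with no filter, 394 with the filter on every array, 322 with the replicate block, 1352 with the mock arrays separate, 1681 with them separate and slide as a block, 425 with TRIM58-WT replicates 2 and 3 averaged and 224 to 2211 with 1 replicate left out. Welch's test was not run for that contrast, nor slide as a block for HCC827, which lies on 1 slide. The replicate block left 1122 probes in A549. The cause of these changes was not tested.

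Of the lists, other mucins in A549 had 1 gene called in one fit of both lines and with the mock arrays separate, with or without slide as a block, and 0 to 1 with 1 replicate left out. Regulators and secreted partners in A549 had 4 with no filter, 0 by Welch's test, 2 with replicates 2 and 3 averaged and 2 to 11 with 1 replicate left out, and in HCC827 2 with a median shift, normexp or the filter on every array and 0 to 2. Exocytosis and hydration in A549 had 0 by Welch's test, 2 with replicates 2 and 3 averaged and 2 to 6 with 1 replicate left out, and in HCC827 2 with a median shift and 0 to 1. Membrane mucin partners in A549 had 1 with no filter, 0 by Welch's test, 0 with replicates 2 and 3 averaged and 0 to 5. O-glycan enzymes in A549 had 3 with normexp, the filter on every array or the replicate block, 2 with no filter, 1 by Welch's test, 8 with the mock arrays separate, 2 with replicates 2 and 3 averaged and 1 to 10, and in HCC827 4 with a median shift, 2 with the filter on every array and 0 to 1.

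Of 279 mucin differences recomputed, 264 moved by less than the SD of the replicates, 14 moved further and 1, of over 1 log2 unit, reversed, MUC15 in A549 within the second slide (-0.16). The filter settings, the joint fit, the replicate block and Welch's test cannot change a difference of means. The count of 264 includes these settings, so it does not measure stability. Smaller A549 differences also changed sign, MUC16 (A_33_P3313110) to -0.39 within the second slide, MUC1 (A_33_P3332215) to 0.67 within the first, and MUC4 (A_33_P3417281) to -0.11 with a median shift and -0.09 without mock replicate 2. With normexp, which adds an offset, MUC13 and MUC5B in A549 had -2.54 and -2.64. A median shift moved the median over all probes from 0.06 to -0.31 in A549 and the share of calls that were higher from 50.5% to 25.6%, and in HCC827 from 32.9% to 46.2%. All 19 named calls in A549, which had passed on these same arrays, kept their direction under each scaling. Signal near background limits the A549 values of MUC13, MUC15, MUC16 and MUC5B, MUC4 on A_24_P208825 and MUC1 on A_33_P3332215.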
